A study of Mus musculus with 157 samples.

Results

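The Gimap genes encode the GTPases of immunity-associated proteins, a family of small GTP-binding proteins made mainly in lymphocytes. Its 8 members in mouse thymus and thymic lymphoma RNA-seq were taken as the rows whose Ensembl mouse identifier carried the symbol Gimap1, Gimap3, Gimap4, Gimap5, Gimap6, Gimap7, Gimap8 or Gimap9. All 8 were found among the 50686 genes of each count table, and all 8 were tested in each of 19 comparisons. In the normal thymus the members did not form a single pattern. Gimap3, Gimap4 and Gimap8 were high in DN1 libraries, low at DN2 and DN3 and higher again at DN4, though well below DN1, whereas Gimap1, Gimap6 and Gimap9 were highest among the later stages in DP cells. In tumours of the RERT2 D/AAA line 5 members were lower than in thymus, where 19.1% (+/D thymus) and 16.8% (D/AAA thymus) of all genes were called lower. In LCK D/AAA MYCChr6 tumours 7 members were higher than in those RERT2 D/AAA tumours, with 18.6% of all genes called higher. The LCK or RERT2 label and MYCChr6 differ together there and cannot be told apart. In 3 RERT2 D/AAA MYCChr6 tumours 5 members were higher than in the RERT2 D/AAA tumours, with 5.65% of all genes called higher. Without replicate 3 of these tumours, 2 members were called higher. No comparison of D/AAA with +/D at the same stage or in the same tissue called a member by edgeR's quasi-likelihood test. Those comparisons called at most 0.0081% of all genes in either direction, so few genes of any kind passed.

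GIMAP proteins share a GTP-binding domain, and several of them sit on intracellular membranes such as the endoplasmic reticulum, the lysosome, lipid droplets or mitochondria. Loss of Gimap5 in rats and mice depletes peripheral T cells, and loss of Gimap1 in mice removes mature T and B cells. Thymocytes pass through the double negative stages DN1 to DN4, which lack CD4 and CD8, to the double positive (DP) stage, and the family has been tied to lymphocyte survival along this path and after it.

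All members lay on chromosome 6 of GRCm38 between 48647234 and 48770851, a stretch of 123618 bases, in the order Gimap8, Gimap9, Gimap4, Gimap6, Gimap7, Gimap1, Gimap5 and Gimap3. Gimap6 and Gimap3 are on the minus strand and the other members on the plus strand. The annotated readthrough gene Gm28053 (chr6:48718607-48752644) overlaps Gimap7, Gimap1 and Gimap5 on their own strand, and the antisense gene Gimap1os (chr6:48738346-48741444) overlaps Gimap1. Strand handling in the counting is not given in the sources used here, so values of these 3 members are less certain. Gm28053 averaged 6.76 CPM in +/D DN1 libraries, where Gimap1 averaged 349 CPM (counts of a gene scaled to its library's total, as described with the processing). Gimap1os averaged 19.3 CPM in the same libraries.

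Promoter sequence was taken from RefSeq on GRCm38.p6 for 3 members that moved most or behaved differently from each other, Gimap4, Gimap3 and Gimap6, as the 250 bases before each annotated start. Capitals mark a match to 1 of 4 short motifs searched on both strands over the 300-base windows of all promoters: TGTGGT (RUNX), GGAAGT (ETS), GTAAACA (FOXO) and CACCTG (E protein).
Gimap4, chr6:48684328-48684577, plus strand: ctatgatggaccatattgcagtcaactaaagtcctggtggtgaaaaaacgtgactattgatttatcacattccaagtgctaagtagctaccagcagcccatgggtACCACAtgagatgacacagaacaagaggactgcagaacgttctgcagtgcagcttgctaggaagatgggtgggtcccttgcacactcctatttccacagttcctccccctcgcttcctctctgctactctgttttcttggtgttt
Gimap3, chr6:48770852-48771101, minus strand: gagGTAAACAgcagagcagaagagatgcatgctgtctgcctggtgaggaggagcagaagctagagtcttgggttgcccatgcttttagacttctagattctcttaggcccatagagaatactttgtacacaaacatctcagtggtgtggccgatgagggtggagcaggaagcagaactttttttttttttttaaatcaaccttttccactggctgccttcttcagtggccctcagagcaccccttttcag
Gimap6, chr6:48708245-48708494, minus strand: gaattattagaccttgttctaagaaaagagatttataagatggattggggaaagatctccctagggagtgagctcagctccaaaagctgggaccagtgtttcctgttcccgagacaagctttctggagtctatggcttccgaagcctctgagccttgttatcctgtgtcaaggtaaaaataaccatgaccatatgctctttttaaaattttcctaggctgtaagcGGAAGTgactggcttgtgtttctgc
The capitals in Gimap4 are the reverse complement of the RUNX motif, those in Gimap3 the FOXO motif and those in Gimap6 the ETS motif. Of the 9 promoters RefSeq lists for the members (Gimap8 has 2), 3 held the RUNX motif (Gimap1, Gimap4 and Gimap7), against 16.8% of 32851 promoters in the genome. The ETS motif was in 4 (Gimap1, Gimap5, Gimap6 and Gimap9), against 23.8% of all promoters. FOXO was in 1 (Gimap3), against 3.65%, and the E protein motif in 1 (Gimap9), against 20.2%. No motif searched contains another, and a match describes the sequence without showing that a factor binds there.

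The series holds 157 libraries in 23 groups, 81 in an earlier sequencing run and 76 in a later one, each with its own count table. Cdc20 encodes the mitotic activator of the anaphase-promoting complex; D/AAA mice (Cdc20(D/AAA), described by the submitters as aneuploid) are compared with +/D controls (Cdc20(+/D)), so every mouse with a stated Cdc20 genotype carries the D allele. Apart from 1 tumour library labelled p53(-/-), genotypes bear the prefix RERT2, LCK or CD4, and some add MYCChr6 or p53(+/D); none of these prefixes, nor the D allele, is spelled out in the labels. The earlier run held RERT2 D/AAA early thymic tumours (7 unsorted, 5 as DP cells) and sorted thymocytes of RERT2 D/AAA and +/D mice: 9 and 6 at DN1, 1 and 8 at DN2, 5 and 8 at DN3, 6 and 8 at DN4, 11 and 7 at DP. The labels of the 7 name no sort, and unsorted is only the name used here. In the later run were tumours of LCK D/AAA MYCChr6 (14 libraries), LCK +/D MYCChr6 (4), CD4 D/AAA MYCChr6 (2), RERT2 D/AAA MYCChr6 (3), RERT2 D/AAA p53(+/D) (10), p53(-/-) (1) and RERT2 D/AAA (22), and non-tumour thymus of RERT2 D/AAA MYCChr6 (3), RERT2 +/D MYCChr6 (2), RERT2 D/AAA (9) and RERT2 +/D (6). The labels do not say whether libraries of a group came from separate animals, so p-values measure only the spread between these libraries.

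Library totals ran from 21199 (D/AAA DN1 replicate 8; all others of that run held at least 2701382) to 11595463 in the earlier run and from 1708619 to 8009572 in the later one. The sort labels were checked against marker genes before use. DN1 libraries carried other cells' genes: the summed CPM of 10 natural killer (NK) and innate cytotoxic markers was 123 to 8608 in D/AAA and 4622 to 6295 in +/D DN1 libraries, against 246 to 585 in +/D DN2 libraries. Kit, the stem cell factor receptor of early thymic progenitors, averaged 64.4 ± 24.8 CPM in +/D DN2 and 11.6 ± 7.85 CPM in +/D DN1 libraries (SD, n = 8 and 6), and Cd44 averaged 6.56 ± 3.92 CPM in +/D DN2 and 201 ± 25.1 CPM in +/D DN1 libraries. DN1 is therefore used below as the name of a sort, not of a progenitor. In the earlier run all +/D libraries sit in the first 56 columns of the table, which were more deeply sequenced, and D/AAA libraries are in both blocks; no label names these blocks. As in any bulk library, fewer cells of a type and less RNA per cell cannot be told apart.

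Levels of the members differed by stage and, per kilobase of exon, changed their order. In +/D DN1 libraries Gimap3 (384 CPM per kb) and Gimap4 (357) led, Gimap6 (148) and Gimap1 (113) followed, and Gimap7 (13.1) was lowest. In +/D DP cells Gimap9 (89.5 CPM per kb), Gimap1 (88.1) and Gimap6 (87.9) led instead, and Gimap5 (7.24), Gimap8 (6.63), Gimap4 (3.24), Gimap3 (2.44) and Gimap7 (1.17) were far lower. The CPM summed over the 8 members averaged 3026 ± 346 in +/D DN1, 390.3 ± 48.3 in DN2, 308 ± 34.6 in DN3, 474 ± 121 in DN4 and 795 ± 110.1 in DP libraries. When the groups of a run were ordered by mean CPM, most neighbours differed by less than their SDs. Gimap1, Gimap7 and Gimap9 had no step between neighbours wider than the SDs in either run. Gimap3 in the earlier run had 1 such step, below the DN1 groups and the unsorted early tumours, and in the later run 1, between +/D thymus and the RERT2 D/AAA tumours ranked next below it.

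From DN1 to DN2 in +/D mice all 8 members fell, with 25.7% of all 13189 genes tested called lower. Gimap4, whose protein has been reported to act with the apoptosis effector Bax, had lowest, median and highest values of 0.180, 2.63 and 8.44 CPM at DN2 and 421, 691 and 787 CPM at DN1. Gimap3, the mouse gene tied to segregation of mitochondrial DNA, had 3.42, 6.55 and 14.1 CPM at DN2 and 885, 994 and 1085 CPM at DN1. For both genes every DN2 library was far below every DN1 library. The log2 fold change was -7.59 ± 0.54 for Gimap4 (fell 193-fold, adjusted p = 3.700e-08) and -6.99 ± 0.30 for Gimap3 (fell 127-fold, adjusted p = 9.34e-12; edgeR quasi-likelihood test, Benjamini-Hochberg over all genes, ± SE). Gimap8, whose protein has several GTP-binding domains, also fell (-5.63 ± 0.39). Gimap7 (-3.20 ± 0.56), Gimap6 (-2.77 ± 0.16) and Gimap5 (-2.60 ± 0.20) fell less on the log2 scale, and Gimap1 (-0.87 ± 0.14) and Gimap9 (-0.78 ± 0.19) least. Of the 8 members all but Gimap9 had groups that did not overlap. The share of all genes without overlap was not counted, here or in the later comparisons. The members' median change was -2.98, against -0.01 over all genes. The NK markers (10 of 10) and the B cell markers (8 of 8) were also called lower in this comparison, as were 18 of 20 mature thymocyte and egress genes, and their part in the members' fall was not tested.

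No member was called between DN3 and DN2 in +/D mice by edgeR, where 1.11% of genes were called higher and 2.52% lower. Of the 8, 4 had an unadjusted p under 0.05 (edgeR), as did 1873 of all 12477 genes tested. Gimap3 had 0.467, 2.64 and 5.69 CPM at DN3 and 3.42, 6.55 and 14.1 CPM at DN2 (lowest, median and highest), with a log2 fold change of -1.35 ± 0.43 (adjusted p = 0.0902 by edgeR's test). DESeq2 called this 1 gene lower (-1.36, adjusted p = 0.0296). At both stages Gimap1, Gimap9 and Gimap6 kept most of the family's reads: Gimap1 averaged 143 ± 31.3 CPM at DN3 and 193 ± 34.3 CPM at DN2 (SD, n = 8 each). Gimap8, Gimap4, Gimap7 and Gimap3 averaged 1.48, 1.17, 2.16 and 3.01 CPM at DN3.

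**Figure D1:**
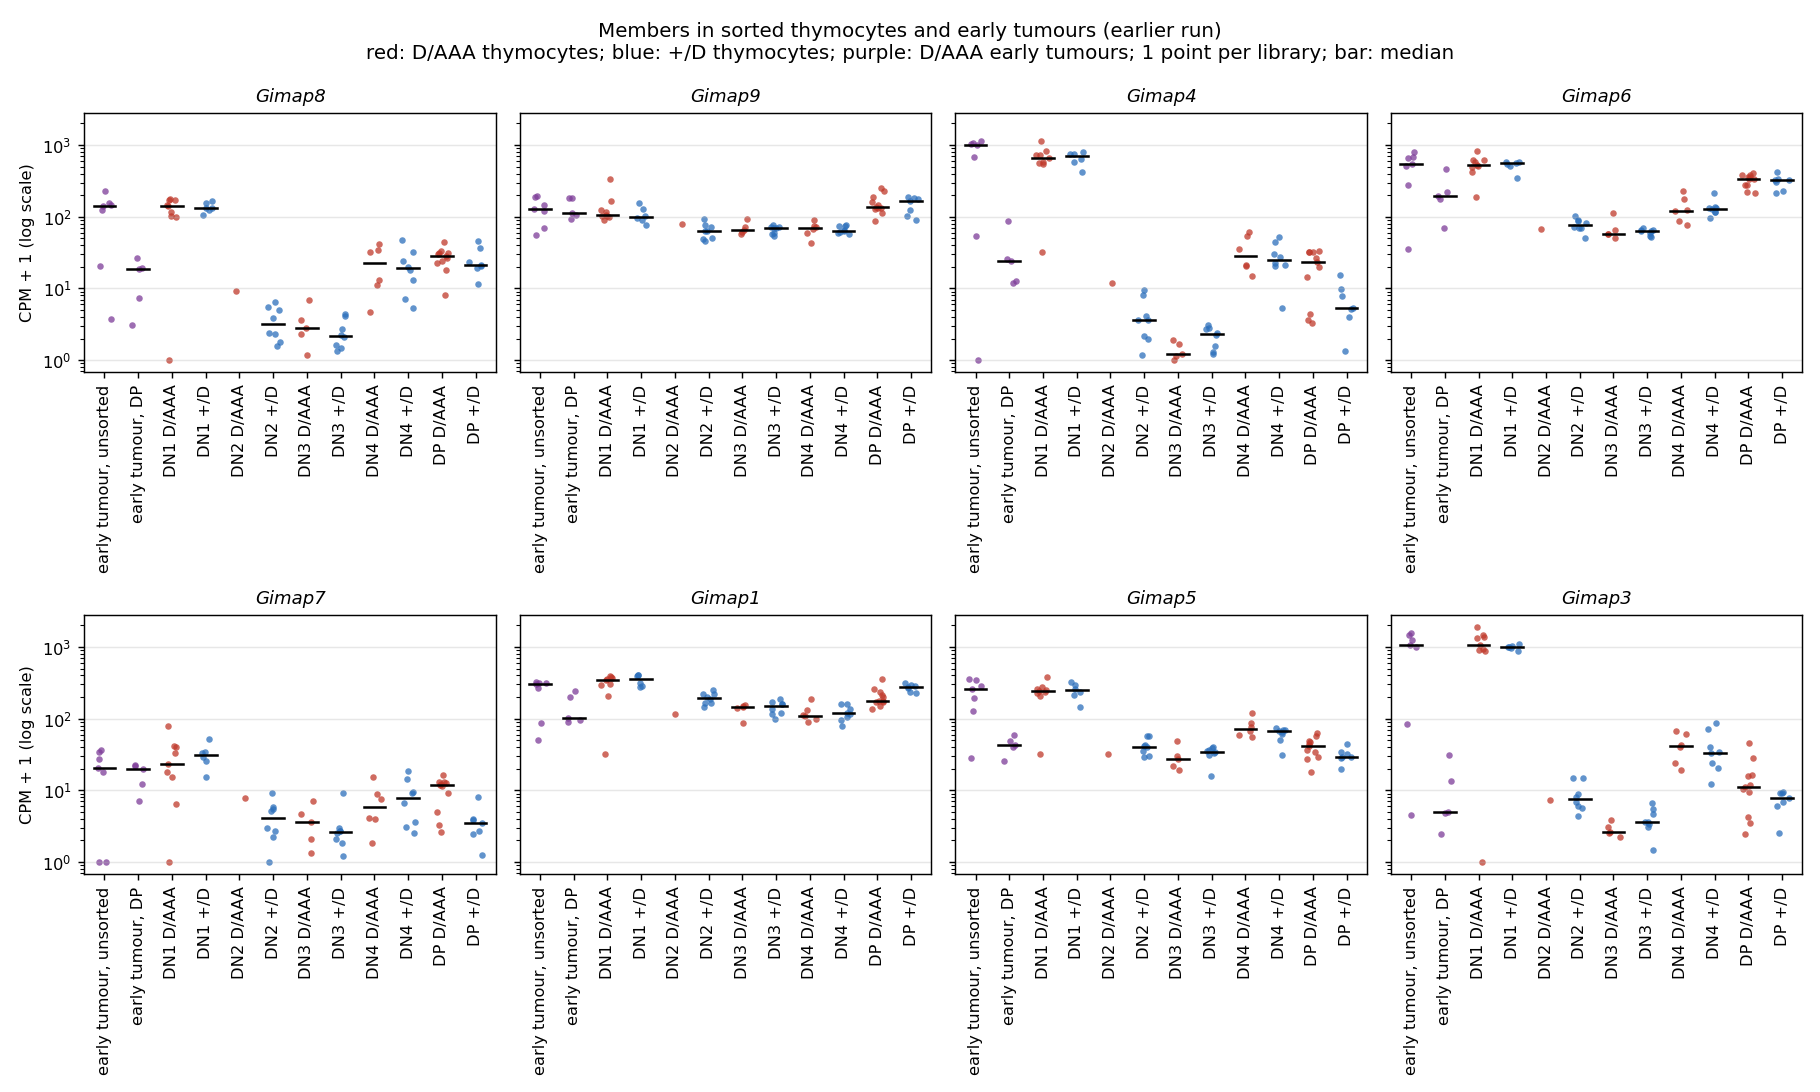
Each member's level (CPM + 1, log axis) in the 81 libraries of the earlier run, 1 point per library with a bar at the group median: early tumours (purple), then DN1 to DP with D/AAA (red) left of +/D (blue). Gimap3, Gimap4 and Gimap8 are highest in DN1 and most unsorted early tumours, lowest at DN3 among the +/D stages and raised at DN4, while Gimap1, Gimap6 and Gimap9 stay above 40 CPM at every +/D stage.

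Between DN3 and DN4, 5 members rose in +/D mice and none fell (7.85% of genes were called higher and 9.9% lower). Gimap4 had 4.27, 24.1 and 51.8 CPM at DN4 and 0.212, 1.34 and 2.05 CPM at DN3 (lowest, median and highest, n = 8 each), and Gimap3 had 11.4, 32.7 and 87.2 CPM at DN4 and 0.467, 2.64 and 5.69 CPM at DN3. In both the lowest DN4 library was above the highest DN3 library. Gimap4 rose 22.2-fold (log2 fold change 4.47 ± 0.49, adjusted p = 1.02e-06, edgeR) and Gimap3 12.7-fold (3.67 ± 0.44, adjusted p = 3.86e-06). Gimap8 (3.66 ± 0.53), Gimap6 (1.08 ± 0.14) and Gimap5 (0.82 ± 0.20) also rose, and of these Gimap8 and Gimap6 did so without overlap. Gimap6 is the member that binds the autophagy protein Gabarapl2, and Gimap5 is the one whose loss depletes T cells. Gimap7 had a log2 fold change of 1.71 ± 0.61 (adjusted p = 0.0584), Gimap1 of -0.30 ± 0.16 and Gimap9 of -0.07 ± 0.12, none of them called. DESeq2 called Gimap7 as well (1.72, adjusted p = 0.0213).

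Other genes of the mature thymocyte programme moved in the same comparison: 12 of 19 tested rose and 3 fell, with a median log2 fold change of 1.57 against 0.01 over all genes. S1pr1, the sphingosine phosphate receptor needed for thymic exit, rose by 8.80 ± 0.67 and its regulator Klf2 by 4.55 ± 0.46 on the log2 scale, whereas Il7r, the interleukin 7 receptor chain (-1.39 ± 0.20), and the survival gene Bcl2 (-1.28 ± 0.20) fell. Of 15 survival and autophagy partners 3 rose and 2 fell. B cell markers summed to 22.1 to 1618 CPM in +/D DN4 and 39.5 to 98.8 CPM in +/D DN3 libraries, NK markers to 234 to 429 CPM at DN4 and 131 to 342 CPM at DN3, and red cell markers to 118 to 3182 CPM at DN4 and 0.139 to 5.44 CPM at DN3; their part in the members' rise was not tested. Of 11 protein-coding neighbours tested within 500000 bases of the cluster, 5 fell and none rose.

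From DN4 to DP, 3 members rose, Gimap9, Gimap6 and Gimap1, and 3 fell, Gimap4, Gimap5 and Gimap3. Over all genes 28.7% were called higher and 26.3% lower, so the members' counts lie near the background. Gimap1, whose loss removes mature lymphocytes in mice, had 231, 273 and 310.1 CPM at DP and 79.2, 118 and 161 CPM at DN4 (lowest, median and highest). For Gimap9 the values were 90.03, 166 and 186 CPM at DP and 55.7, 62.8 and 74.5 CPM at DN4. Every DP library exceeded every DN4 library for these 2 members. Their log2 fold changes were 1.23 ± 0.14 for Gimap1 (adjusted p = 5.32e-07, edgeR) and 1.25 ± 0.16 for Gimap9 (adjusted p = 1.84e-06); Gimap6 rose by 1.27 ± 0.16. Gimap3 went the other way, with 1.51, 6.86 and 8.42 CPM at DP and 11.4, 32.7 and 87.2 CPM at DN4, again without overlap (-2.58 ± 0.42, adjusted p = 2.65e-05). Gimap4 fell by 2.13 ± 0.53 and Gimap5 by 0.93 ± 0.20 on the log2 scale with overlapping groups. Gimap8 (0.36 ± 0.41) and Gimap7 (-1.39 ± 0.61, adjusted p = 0.0603) were not called; DESeq2 called Gimap7 lower (-1.43, adjusted p = 0.0286). DN4 libraries enter both this comparison and the one before it, so high or low DN4 values move both. Of the 12 genes typical of DP cells 11 rose, and of the mature thymocyte genes 5 of 19 rose and 10 fell, among them S1pr1 (-8.13 ± 0.75) and Klf2 (-3.51 ± 0.49). Of 15 survival and autophagy partners 6 rose, with Bcl2l1 (3.03 ± 0.12), the survival protein of DP cells, changing most, and 4 fell, Il7r most (-3.19 ± 0.34).

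D/AAA and +/D libraries of the same stage were then set against each other, which asks whether the aneuploid genotype alters the family in thymocytes labelled non-tumoral. By edgeR no member was called at DN1, DN3, DN4 or DP, and DESeq2 called none either. Among all genes 0% were called higher at each stage, and 0%, 0%, 0.0081% and 0.00803% lower, so few genes of any kind passed. At DN1, DN3 and DN4 no member had an unadjusted p under 0.05 (edgeR). Over all genes 353 of 12822, 549 of 12912 and 798 of 12348 were under it at these stages. The members' log2 fold changes (D/AAA over +/D) ran at DN1 from -0.14 ± 0.23 for Gimap1 to 0.19 ± 0.36 for Gimap3. At DN3 they ran from -1.53 ± 0.90 for Gimap4 (0.389 and 1.17 CPM on average in D/AAA and +/D) to 0.71 ± 0.77 for Gimap8. At DN4 the range was -0.27 ± 0.63 for Gimap7 to 0.42 ± 0.21 for Gimap5. Red cell markers summed to 1825 to 37099 CPM in D/AAA and 118 to 3182 CPM in +/D DN4 libraries, and their part was not tested. Without D/AAA DN1 replicate 8, the library of 21199 counts, Gimap3 averaged 1229 ± 352 CPM in D/AAA (n = 8), against 988 ± 65.8 CPM in +/D DN1 libraries (n = 6).

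The smallest p-values of the genotype comparisons were in DP cells. Gimap4 had 2.31, 22.1 and 32.03 CPM in D/AAA and 0.350, 4.38 and 14.3 CPM in +/D DP cells (lowest, median and highest, n = 11 and 7), and Gimap7, whose human counterpart hydrolyses GTP as a dimer, had 1.61, 10.9 and 15.6 CPM in D/AAA and 0.274, 2.53 and 7.18 CPM in +/D. The groups overlapped for both, with 8 of 11 D/AAA libraries above the +/D median for Gimap4 and 9 of 11 for Gimap7. Log2 fold changes were 1.75 ± 0.59 for Gimap4 (p = 0.00644 and adjusted p = 0.310 in edgeR) and 1.78 ± 0.53 for Gimap7 (p = 0.00276 and adjusted p = 0.283). Gimap3 (1.12 ± 0.53) and Gimap1 (-0.37 ± 0.16, lower in 10 of 11 libraries than the +/D median) also had an unadjusted p under 0.05 and failed the correction. Over all genes, 1325 of 12451 had an unadjusted p under 0.05 (edgeR). In the deeper block of libraries alone Gimap4 differed by 1.396 and Gimap7 by 2.02, and Gimap3 by -0.24, the opposite sign. NK markers summed to 32.98 to 769 CPM in D/AAA (769 in replicate 1) and 22.3 to 39.00 CPM in +/D DP libraries, and their part was not tested. D/AAA DP replicates 1 and 5 had the highest Gimap7 (15.6 and 12.1 CPM). Their chromosome 15 scores (median log2 difference of its genes from +/D DP cells) were 0.741 and 0.528, within the 0.0551 to 0.998 of early DP tumours. Without these 2 libraries edgeR called 0 of 12052 genes higher and 1 lower. A test of whether the genotype effect differed between DN1, DN3, DN4 and DP called 22 of 16403 genes (0.134%) and 0 of 8 members by edgeR. Gimap4 had the smallest p of the members in it, 0.00817 (adjusted p = 0.326). The single D/AAA DN2 library had 10.9 CPM of Gimap4 and 6.27 CPM of Gimap3, with no replicate to compare.

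Early tumours were set against D/AAA DP cells. The 5 early tumours sorted as DP cells had no member at an unadjusted p under 0.05, against 2719 of all 12245 genes tested (edgeR). No member was called by edgeR or DESeq2, and edgeR called 0% of genes in either direction. The count over all genes was not stable: edgeR called 682 genes higher and 867 lower without tumour replicate 1, 1121 and 602 without D/AAA DP replicates 1 and 5, 548 and 188 in the shallower block alone and 903 and 633 in 1 fit of all groups, and DESeq2 called 436 and 419. D/AAA DP replicates 1 and 5 had chromosome 15 scores (the median log2 difference of its genes from +/D DP cells) of 0.741 and 0.528, within the 0.0551 to 0.998 of the 5 tumours. Gimap8 was 25.8, 17.8, 2.12, 18.5 and 6.25 CPM in these tumours and 7.205, 27.1 and 42.8 CPM in D/AAA DP cells (lowest, median and highest), below the DP median in 5 of 5 (-0.90 ± 0.44, adjusted p = 0.233). Gimap6 was 468, 193, 68.5, 222 and 178 CPM in the tumours and 214, 336 and 412 CPM in D/AAA DP cells (-0.53 ± 0.30, adjusted p = 0.304). Of the 5 tumours 3 were below the lowest DP library and 1, replicate 1, was above the highest. Without replicate 1, Gimap6 was called lower (-0.96, adjusted p = 0.0318, edgeR), 1 member against 0, in the fit that called 867 of 12560 genes lower.

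The 7 unsorted early tumours differed from D/AAA DP cells in 4 members, all higher (15.9% of genes were called higher, and 13.2% lower). Gimap3 had 3.55, 1051 and 1554 CPM in unsorted early tumours and 1.47, 10.2 and 44.04 CPM in D/AAA DP cells, and Gimap4 had 0, 1010.0 and 1127 CPM in the tumours and 2.31, 22.1 and 32.03 CPM in DP cells. Gimap3, Gimap4 and Gimap5 exceeded the highest DP library in 6 of 7 tumours each and Gimap8 in 5 of 7. Log2 fold changes were 6.11 ± 0.84 for Gimap3 (adjusted p = 3.65e-05, edgeR), 5.21 ± 0.88 for Gimap4 (adjusted p = 0.000230), 2.53 ± 0.34 for Gimap5 (adjusted p = 1.97e-05) and 2.16 ± 0.50 for Gimap8 (adjusted p = 0.00270). Gimap6, Gimap7, Gimap1 and Gimap9 were not called (0.64, 1.05, 0.23 and -0.26). NK markers moved with this result: 10 markers summed to 395 to 9325 CPM in unsorted early tumours and 32.98 to 769 CPM in D/AAA DP cells, and B cell markers to 21.95 to 2069 CPM in the tumours and 12.5 to 63.2 CPM in DP cells. Of the markers tested, 5 of 6 for NK cells and 4 of 4 for B cells were called higher. The 2 tumours with the lowest NK sums, replicates 2 (395 CPM) and 3 (451 CPM), were also lowest in Gimap3 (3.55 and 83.4 CPM) and Gimap4 (0 and 52.8 CPM). The other replicates had NK sums of at least 3699 CPM and Gimap3 of at least 986 CPM. In D/AAA DN1 libraries other than replicate 8, NK sums ran from 4219 to 8608 CPM and Gimap3 from 883 to 1899.5 CPM. These tumours were not tested against DN1 libraries. In the same comparison 9 of 12 genes typical of DP cells fell, Cd4 (-7.01 ± 0.57) and Cd8a (-6.78 ± 0.67) most. The part of NK and B cells in the members' higher values was not tested, and both early tumour comparisons share the D/AAA DP libraries.

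Whole thymus and established tumours were measured in the later run. Between D/AAA and +/D thymus no member was called by edgeR or DESeq2 (0% of genes were called in either direction by edgeR). No member had an unadjusted p under 0.05, against 907 of all 11044 genes tested (edgeR). The log2 fold changes ran from -0.16 ± 0.21 for Gimap1 to 0.80 ± 0.55 for Gimap7. Gimap3 averaged 36.8 ± 16.7 CPM in D/AAA and 26.3 ± 10.6 CPM in +/D thymus (SD, n = 9 and 6).

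RERT2 D/AAA tumours had less of 5 members than +/D thymus (19.1% of genes were called lower). Gimap3 had 0, 1.88 and 5.89 CPM in the 22 tumours and 8.12, 30.03 and 36.2 CPM in the 6 +/D thymuses, so all 22 tumours were below the lowest thymus. For Gimap6 the values were 8.57, 21.98 and 64.2 CPM in tumours and 60.5, 112 and 144 CPM in thymus, with 21 of 22 tumours below. Gimap4 had 0.421, 3.56 and 22.6 CPM in tumours and 20.4, 27.96 and 44.6 CPM in thymus, with 21 of 22 below. Gimap3 fell 11.6-fold (log2 fold change -3.54 ± 0.45, adjusted p = 2.52e-07, edgeR), Gimap6 by 2.04 ± 0.25 (adjusted p = 1.31e-07) and Gimap4 by 2.42 ± 0.50 (adjusted p = 0.000284) on the log2 scale. Gimap8 (-2.31 ± 0.53) and Gimap1 (-0.84 ± 0.24) fell too, in 20 and 15 of 22 tumours below the lowest thymus. Gimap9 (-0.35 ± 0.23), Gimap5 (-0.34 ± 0.34) and Gimap7 (-0.07 ± 0.60) were not called. The members' median was -1.44, against 0.05 over all genes, and their summed CPM averaged 121 ± 48.7 in tumours and 304 ± 56.04 in thymus. Per kilobase, Gimap9 (15.99) and Gimap1 (11.6 CPM per kb) led in the tumours and Gimap3 was at 0.880.

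Set against D/AAA thymus, the same tumours had the same 5 members lower (16.8% of genes were called lower), from -0.68 ± 0.22 for Gimap1 to -4.03 ± 0.41 for Gimap3 (fell 16.3-fold, adjusted p = 2.78e-08, edgeR). Fewer tumours were below the lowest D/AAA thymus, 18 of 22 for Gimap3 and 8 of 22 for Gimap1. For Gimap3 that thymus was replicate 7 (4.46 CPM), and the next lowest had 20.97 CPM, above the highest tumour (5.89 CPM). Chromosome 15 scores, taken relative to +/D thymus, were 0.537, 0.540, 0.592 and 0.360 in D/AAA thymus replicates 3, 5, 7 and 8. In the tumours they ran from 0.391 to 0.888. The tumours are shared by both comparisons. Against +/D thymus, 12 of 20 mature thymocyte genes fell and none rose, Egr2 (-4.89 ± 0.77) and Ms4a4b (-4.64 ± 0.49) most, and 11 of 12 genes typical of DP cells fell. Survival and autophagy partners were mixed, with 2 of 15 higher, Bid (1.504 ± 0.33) and Bax (1.05 ± 0.24), and 6 lower, Gabarapl1 (-4.36 ± 0.74) and Bcl2l1 (-2.25 ± 0.25) most. Over all genes tested against +/D thymus, 22.4% were called higher and 19.1% lower. The score of chromosome 6, the median over its other expressed genes of the log2(CPM + 1) difference from the mean of +/D thymus, had a median of 0.01 in these tumours. Among 12 neighbouring protein-coding genes 2 fell and 1 rose. B cell markers summed to 0.360 to 43.4 CPM in tumours and 31.6 to 184 CPM in +/D thymus; their part in the fall was not tested.

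**Figure D2:**
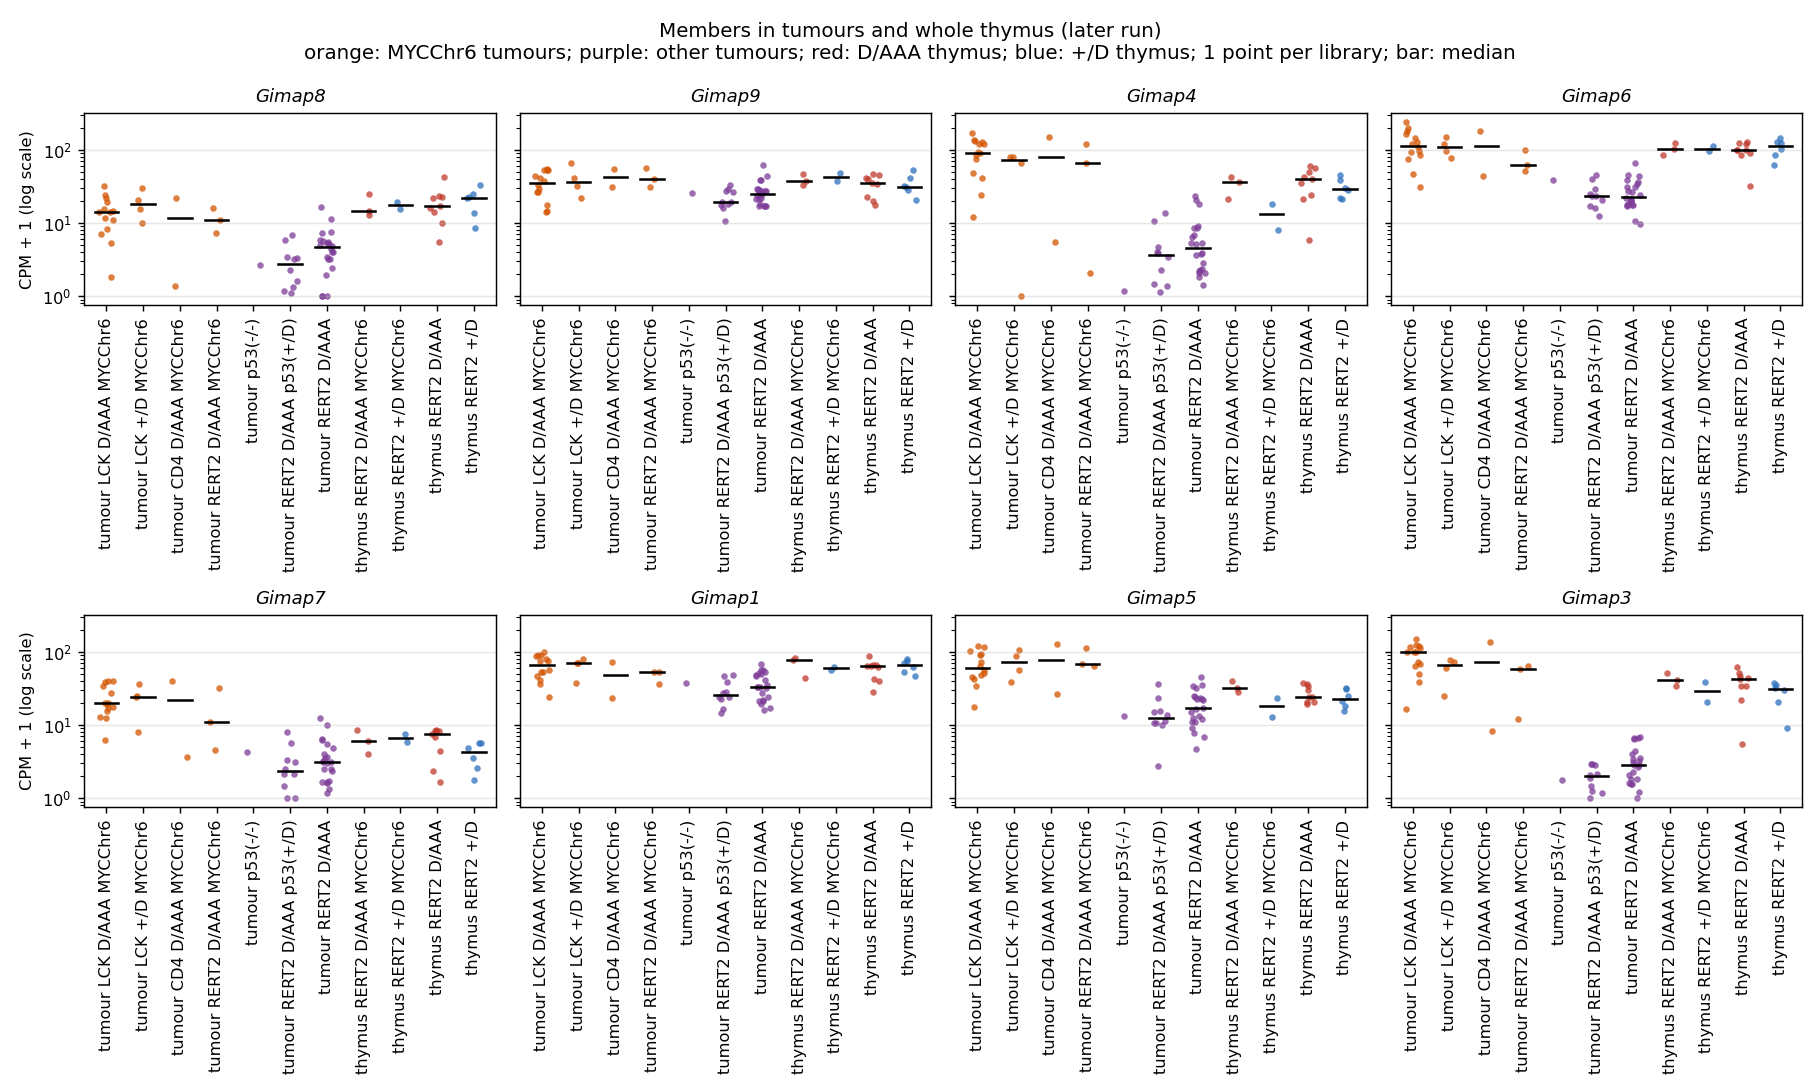
Each member's level (CPM + 1, log axis) in the 76 libraries of the later run, 1 point per library with a bar at the group median: MYCChr6 tumours (orange), other tumours (purple), D/AAA thymus (red) and +/D thymus (blue). Gimap3 is at most 5.89 CPM in the 22 RERT2 D/AAA tumours, at least 8.12 CPM in +/D thymus and at least 15.7 CPM in the 14 LCK D/AAA MYCChr6 tumours.

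RERT2 D/AAA p53(+/D) tumours, labelled for the tumour suppressor p53, had all 8 fold changes below 0 relative to the RERT2 D/AAA tumours without it, and none was called by edgeR or DESeq2 (0.742% of genes were called higher and 0.55% lower). The changes ran from -1.18 ± 0.57 for Gimap3 (p = 0.0446, adjusted p = 0.331, edgeR; the 1 member under an unadjusted 0.05) to -0.11 for Gimap6. Of all 11453 genes tested, 1651 had an unadjusted p under 0.05 (edgeR). Gimap3 had 0, 0.994 and 1.97 CPM in the 10 p53(+/D) tumours and 0, 1.88 and 5.89 CPM in the 22 others. The single p53(-/-) tumour held 0.763 CPM of Gimap3, 0.191 CPM of Gimap4 and 37.0 CPM of Gimap6, and has no replicate.

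MYCChr6 tumours were then set against the RERT2 D/AAA tumours. Relative to +/D thymus the members were mixed: LCK D/AAA MYCChr6 tumours averaged 86.3 CPM of Gimap3 and 13.4 CPM of Gimap8, and +/D thymus 26.3 and 19.7 CPM. In LCK D/AAA MYCChr6 tumours 7 members were higher than in RERT2 D/AAA tumours (18.6% of genes were called higher), a comparison in which the prefix and MYCChr6 differ together and cannot be told apart. Gimap3 had 15.7, 97.6 and 149 CPM in the 14 LCK D/AAA MYCChr6 tumours and 0, 1.88 and 5.89 CPM in the 22 RERT2 D/AAA tumours, and all 14 were above all 22. Gimap4 had 11.1, 90.4 and 166 CPM in the LCK D/AAA MYCChr6 and 0.421, 3.56 and 22.6 CPM in the RERT2 D/AAA tumours, and 13 of 14 were above the highest RERT2 D/AAA tumour. Gimap7 had 5.19, 18.6 and 39.3 CPM in the LCK D/AAA MYCChr6 and 0.180, 2.14 and 11.6 CPM in the RERT2 D/AAA tumours, again with 13 of 14 above. Gimap3 was higher by 5.25 ± 0.36 on the log2 scale (adjusted p = 1.57e-13, edgeR), Gimap4 15.97-fold (3.997 ± 0.42, adjusted p = 5.62e-09), and Gimap7 higher by 2.91 ± 0.37 (adjusted p = 1.499e-07). Gimap6 (2.22 ± 0.23), Gimap5 (1.90 ± 0.26), Gimap8 (1.75 ± 0.44) and Gimap1 (0.85 ± 0.20) were also higher, with 12, 10, 4 and 7 of 14 tumours above the highest RERT2 D/AAA tumour. Gimap9 was not called (0.41 ± 0.19, adjusted p = 0.0957). The members' median was 2.06, against 0.00 over all genes, and their CPM summed to 497 ± 173 in LCK D/AAA MYCChr6 tumours and 121 ± 48.7 in RERT2 D/AAA tumours. Per kilobase Gimap4 (48.7), Gimap6 (34.4) and Gimap3 (33.5 CPM per kb) led in the LCK tumours.

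Of 20 mature thymocyte genes 11 were higher in this comparison and 1 lower, Ms4a4b (5.19 ± 0.47) and Cd52 (3.82 ± 0.34) most, and 7 of 12 DP genes were lower, none higher. Over all genes 18.6% were called higher and 16.7% lower. Of 15 survival and autophagy partners 3 were higher, Gabarapl1 most (5.68 ± 0.52), and 3 lower, Bcl2l1 most (-2.01 ± 0.32). The chromosome 6 score, taken relative to +/D thymus, had a median of 0.50 in LCK D/AAA MYCChr6 tumours and 0.01 in RERT2 D/AAA tumours, and 4 of 11 neighbouring protein-coding genes were higher with a median of 0.56. Single libraries ran from -0.05 to 0.78 in LCK D/AAA MYCChr6 and from -0.17 to 0.53 in RERT2 D/AAA tumours, and the score's part in the result was not tested. B cell markers summed to 9.58 to 1326 CPM in LCK D/AAA MYCChr6 and 0.360 to 43.4 CPM in RERT2 D/AAA tumours, with 5 of 5 tested called higher. Macrophage and granulocyte markers summed to 131 to 2340.3 CPM in LCK D/AAA MYCChr6 and 28.1 to 196 CPM in RERT2 D/AAA tumours. NK markers summed to 22.03 to 563 CPM in LCK D/AAA MYCChr6 and 40.6 to 590.2 CPM in RERT2 D/AAA tumours, with 2 of 5 tested called higher and 1 lower. The part of such cells in the group difference was not tested.

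**Figure D3:**
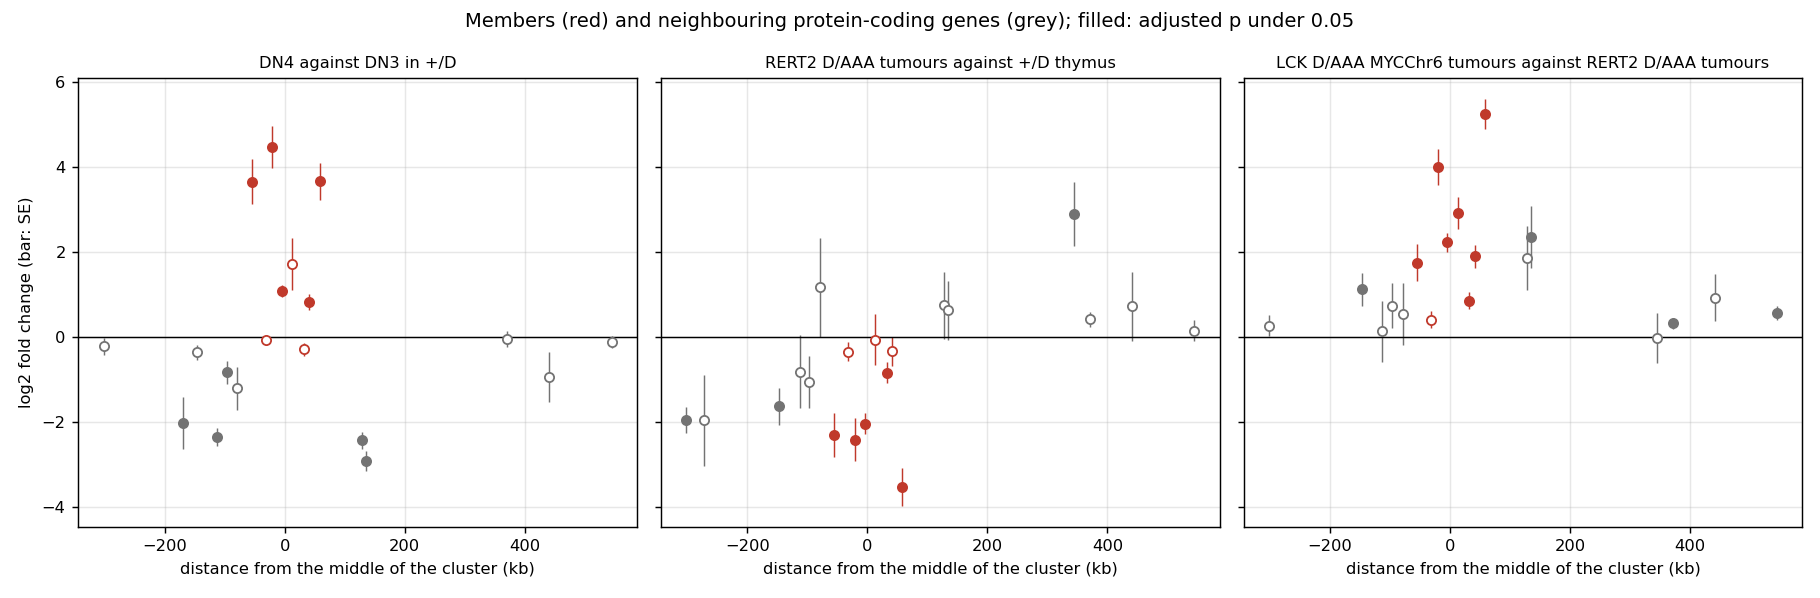
Log2 fold change ± SE of the members (red) and of neighbouring protein-coding genes (grey) against distance from the middle of the cluster in kb, in 3 comparisons: DN4 over DN3 in +/D, RERT2 D/AAA tumours over +/D thymus, and LCK D/AAA MYCChr6 over RERT2 D/AAA tumours. Members span -3.54 to -0.07 in tumours over thymus and 0.41 to 5.25 in LCK D/AAA MYCChr6 over RERT2 D/AAA tumours, and the neighbours have medians of -0.95, 0.28 and 0.56 in the 3 panels.

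**Figure D4:**
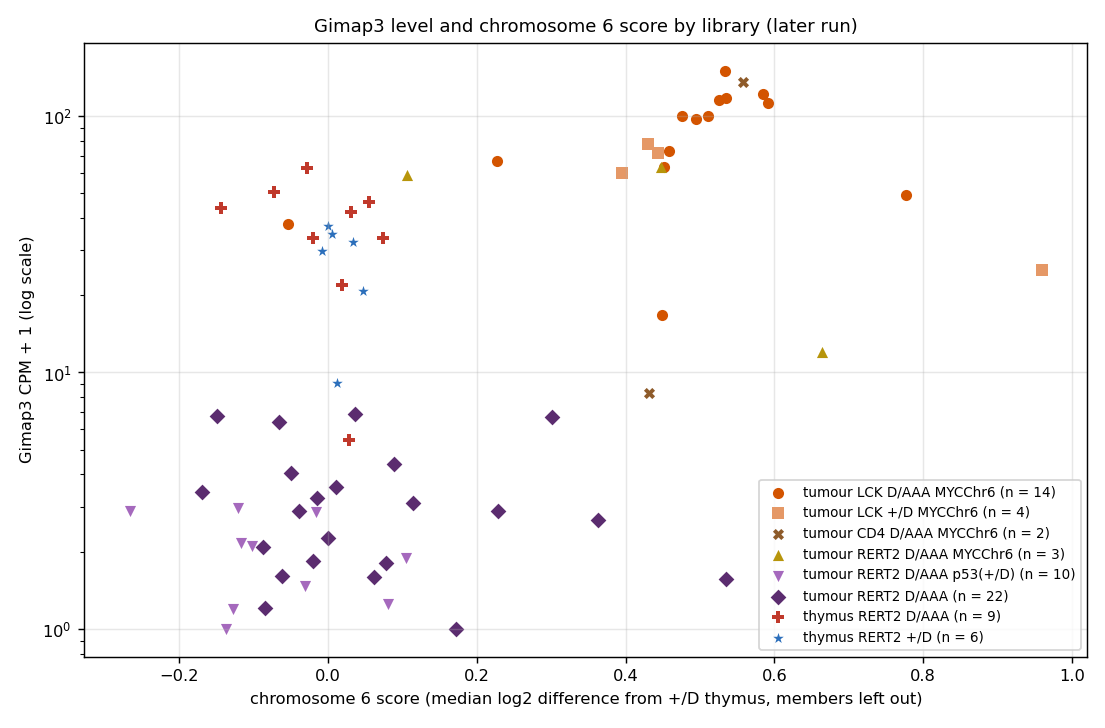
Gimap3 level (CPM + 1, log axis) against the chromosome 6 score (median log2 difference of its other expressed genes from +/D thymus) for libraries of 8 groups of the later run, 1 point per library. LCK D/AAA MYCChr6 tumours lie between scores of -0.05 and 0.78 and at 15.7 CPM or more, and RERT2 D/AAA tumours between -0.17 and 0.53 and at 5.89 CPM or less.

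The comparison with MYCChr6 within the RERT2 line rests on 3 tumours. Gimap3 was 10.99, 62.1 and 57.6 CPM in these and 0, 1.88 and 5.89 CPM in RERT2 D/AAA tumours (lowest, median and highest). Gimap5 was 62.8, 66.1 and 112 CPM in the MYCChr6 tumours and 3.73, 15.8 and 44.1 CPM in the RERT2 D/AAA tumours, and for both genes every MYCChr6 tumour was above every other tumour. In the MYCChr6 tumours Gimap4 was 1.06, 63.8 and 119.6 CPM, with the first library inside the range of the RERT2 D/AAA tumours (0.421 to 22.6 CPM). Called higher were 5 members (5.65% of genes were called higher and 3.57% lower): Gimap3 (4.27 ± 0.56, adjusted p = 8.38e-06, edgeR), Gimap5 (2.16 ± 0.40, adjusted p = 0.000611), Gimap4 (3.47 ± 0.72), Gimap7 (2.37 ± 0.67) and Gimap6 (1.45 ± 0.35). Without replicate 3 only 2 of the 5, Gimap3 and Gimap5, were called, and Gimap4 (2.55, adjusted p = 0.099), Gimap7 (1.23) and Gimap6 (1.10) were not. B cell markers summed to 4.08 CPM in replicate 1 and to 282 and 345 CPM in replicates 2 and 3, and macrophage and granulocyte markers to 32.8, 165 and 444 CPM in replicates 1 to 3, beside Gimap4 at 1.06, 63.8 and 119.6 CPM. Their part was not tested. The chromosome 6 score was 0.66, 0.45 and 0.11 in replicates 1 to 3 and ran from -0.17 to 0.53 in RERT2 D/AAA tumours. Of 13 neighbouring protein-coding genes 0 were called, with a median log2 fold change of 0.92. The score's part was not tested. Of 20 mature thymocyte genes 4 were higher. The p53, LCK and RERT2 MYCChr6 comparisons share the 22 RERT2 D/AAA tumours.

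Among LCK MYCChr6 tumours no member was called between D/AAA (n = 14) and +/D (n = 4) by edgeR or DESeq2. By edgeR 0% of genes were called in either direction. No member had an unadjusted p under 0.05, against 653 of all 12791 genes tested (edgeR). Changes ran from -0.44 ± 0.52 for Gimap8 to 0.69 ± 0.81 for Gimap4. The LCK +/D MYCChr6 tumours had 70.9, 76.6, 59.1 and 24.1 CPM of Gimap3 and 77.8, 64.5, 77.5 and 0 CPM of Gimap4; the fourth, which also had the lowest B cell sum (6.56 CPM), had no Gimap4 count. Set against RERT2 +/D thymus without MYCChr6, these 4 tumours had 3 members higher (16.4% of genes were called higher). Prefix, MYCChr6 and tumour status differ together in this comparison and cannot be told apart. Gimap7 was 23.9, 22.7, 35.6 and 7.09 CPM in the tumours and 0.770, 3.23 and 4.72 CPM in thymus, and Gimap5 was 105, 37.5, 85.4 and 55.7 CPM in the tumours and 14.7, 21.9 and 31.3 CPM in thymus, without overlap in either. Gimap7 was 7.18-fold higher (2.84 ± 0.52, adjusted p = 0.00104, edgeR), Gimap5 higher by 1.62 ± 0.30 (adjusted p = 0.00113) and Gimap3 by 1.11 ± 0.38 (adjusted p = 0.0398). Gimap3 was no longer called when any 1 of replicates 1, 2 and 3 was left out (0.95 to 1.11). The other 5 ran from -0.15 ± 0.41 for Gimap8 to 0.85 ± 0.83 for Gimap4, uncalled. Of the lists 10 of 12 DP genes and 6 of 20 mature thymocyte genes fell, with 15.9% of all genes called lower. The chromosome 6 score ran from 0.40 to 0.96 in these tumours and from -0.0073 to 0.0478 in +/D thymus. Of 12 neighbouring protein-coding genes 1 was higher and 1 lower, with a median log2 fold change of 0.54. The score's part was not tested. B cell markers summed to 6.56 to 815 CPM in these tumours and 31.6 to 184 CPM in +/D thymus, while macrophage and granulocyte markers summed to 108 to 605 CPM in the tumours and 14.6 to 61.03 CPM in +/D thymus, without overlap. Their part was not tested.

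RERT2 D/AAA MYCChr6 tumours (n = 3) and thymus (n = 3) had no member called by edgeR (0.919% of genes were called higher and 1.25% lower). Gimap5 was 62.8, 66.1 and 112 CPM in tumours and 27.1, 39.01 and 30.95 CPM in thymus, without overlap. Its log2 fold change was 1.29 ± 0.32 (adjusted p = 0.0806, edgeR), the 1 member at an unadjusted p under 0.05, and DESeq2 called it (1.31, adjusted p = 0.0106). Of all 11105 genes tested, 2169 had an unadjusted p under 0.05 (edgeR). The other 7 members ran from -0.66 ± 0.49 for Gimap8 to 1.49 ± 0.81 for Gimap7. Chromosome 6 scores ran from 0.11 to 0.66 in these tumours and from -0.11 to 0.10 in this thymus group. Chromosome 15 scores ran from 0.131 to 0.354 in the tumours and from 0 to 0.634 in this thymus group, highest in replicate 1. Red cell markers summed to 23.7 to 103 CPM in the tumours and to 171, 6556 and 59533 CPM in the thymus libraries. The part of these scores and markers was not tested. The 2 CD4 D/AAA MYCChr6 tumours, not tested, were far apart in Gimap3 (7.32 and 134 CPM), Gimap4 (4.54 and 149.9 CPM) and Gimap7 (2.65 and 39.1 CPM).

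**Figure D5:**
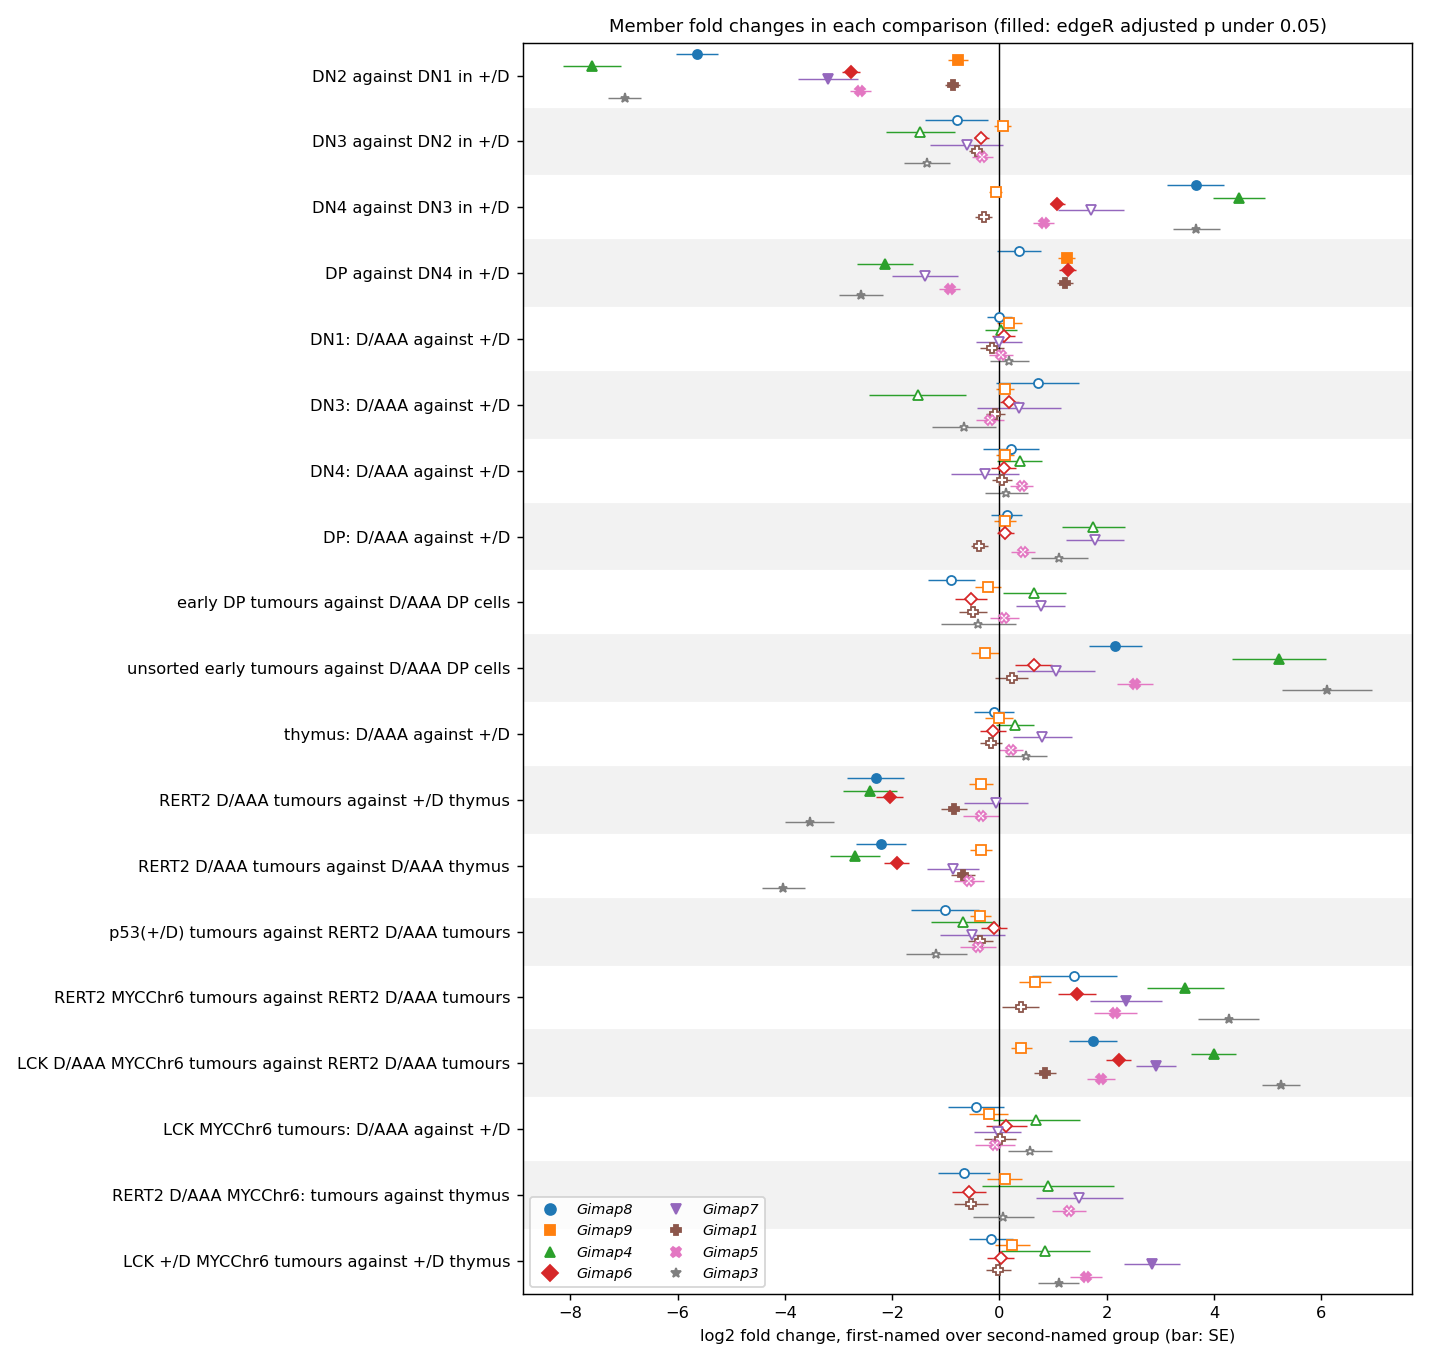
Log2 fold change ± SE of each member in the 19 comparisons, filled where the edgeR adjusted p is under 0.05. The changes run from -7.59 (Gimap4, DN2 over DN1) to 6.11 (Gimap3, unsorted early tumours over D/AAA DP cells), and no point is filled in the D/AAA over +/D comparisons.

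Across libraries the members were linked unevenly. Pearson's r of log2(CPM + 1) between 2 members ran from 0.17 (Gimap9 and Gimap5) to 0.93 (Gimap5 and Gimap3) over the 81 earlier libraries and from 0.44 (Gimap9 and Gimap5) to 0.86 (Gimap6 and Gimap3) over the 76 later ones. Gimap9 followed the members' mean profile least in both runs, with r of 0.54 and 0.66. The genes outside the family whose profile was most like that mean were, in the earlier run, Tmsb4x (r = 0.96), Cd52 (0.96), Il2rg (0.95), Slfn2 (0.94) and Prf1 (0.93), among 10789 genes. In the later run they were Tes (0.89), Shisa5 (0.85), H2-K1 (0.85), H2-Q7 (0.83) and Cd52 (0.83), among 9304 genes. These values describe libraries that share groups, depth and cell content, and carry no test.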

How the data were processed

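RNA was measured by bulk RNA-seq in 157 libraries of mouse thymus, sorted thymocytes and thymic tumours. The deposited tables hold the authors' expected counts per gene, made with STAR 2.5.3a and RSEM 1.3.0 on GRCm38 after FastQC, per the submitters' processing notes. All values were whole numbers, so none was rounded. Gene names came from the GENCODE annotation of GRCm38, which matched 50376 of 50686 identifiers; annotation release and strand setting of the deposited counts are not given in the sources. Each run was analysed on its own, 0 columns lacked a sample and 0 pairs of libraries were identical.

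Members, lists and tests were chosen with earlier results of these data known. CPM were scaled with TMM factors over all libraries of a run. Groups were compared with edgeR 4.0.16 (limma 3.58.1, R 4.3.3) by the quasi-likelihood test after filterByExpr and TMM, on the libraries of the 2 groups only, with Benjamini-Hochberg adjustment over all genes tested and a threshold of 0.05; the interaction used all sorted groups of both genotypes from DN1, DN3, DN4 and DP. The SE of a log2 fold change was its size divided by the square root of the F statistic. The procedure was tested on simulated data. All 8 members are named; of other lists at most 2 genes per direction, those with the largest called change. Profiles most like the members' were sought among genes averaging 5 CPM or more. Alternatives were DESeq2 1.42.0, DESeq2-type size factors, no low-count filter, 1 table row left out, 1 fit of all groups, each library left out in small groups, and 5 added after the data were seen. Values used Python 3.11.15, numpy 2.4.6, pandas 2.3.3 and matplotlib 3.10.9. Groups of 1 or 2 libraries (D/AAA DN2, CD4 D/AAA MYCChr6, p53(-/-) and +/D MYCChr6 thymus) were not tested. Depth sets the precision, and a gene near 1 CPM rests on few counts. The lists (20 mature thymocyte and egress genes, 15 survival and autophagy partners, 12 DP genes) share Il7r, Bcl2, Foxo1 and Bcl2l1.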

Additional observations from a re-analysis of the deposited data

Results flagged for a closer look

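Of 112 sets of 4 to 10 libraries (a member in a group), 14 had 1 library far from the others of its group, measured as its gap to the nearest one over the range of the group. Such a rule flags about 1 in 20 sets where values are independent and normally spread. CPM need not be so, and the members share their libraries, so the 14 cannot be set against that rate. Of these, 3 are D/AAA DN1 replicate 8, the library of 21199 counts, with Gimap5 at 30.75 CPM and Gimap8 at 0 CPM below the other 8 libraries and Gimap9 at 338 CPM above them. In D/AAA DN3 cells Gimap1 was low in replicate 5 (84.7 CPM, others 139 to 156 CPM) and Gimap6 high in replicate 2 (110.6 CPM). In +/D DN3 cells Gimap5 was low in replicate 2 (15.1 CPM) and Gimap7 high in replicate 7 (8.20 CPM). Gimap6 was low in +/D DN1 replicate 1 (349 CPM) and high in +/D DN4 replicate 7 (214 CPM), and Gimap7 was high in +/D DP replicate 5 (7.18 CPM). Gimap4 was high in early DP tumour replicate 5 (86.2 CPM, others 10.99 to 24.4 CPM) and at 0 CPM in LCK +/D MYCChr6 tumour replicate 4 (others 64.5 to 77.8 CPM). In D/AAA thymus Gimap6 was low in replicate 7 (31.2 CPM) and Gimap8 high in replicate 9 (41.7 CPM).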

How the results depend on the processing

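Under the alternatives run, 268 counts of members called were unchanged or stayed within 1.5 times, and 5 did not. Most of these counts were 0 in the main fit, and 0 in both fits was taken as unchanged, so the 268 says little about the called members. Of the refits of called members 277 kept direction and call and 7 lost the call. DESeq2 called 1 member lower between DN3 and DN2 (Gimap3), and DESeq2 and the fit with no low-count filter each called 1 member, Gimap5, higher in RERT2 D/AAA MYCChr6 tumours than in thymus; the cause was not tested. Leaving out each library in turn, the count lower in early DP tumours ran from 0 to 1 (1 without replicate 1, where calls over all genes also appeared) and the count higher in RERT2 D/AAA MYCChr6 over RERT2 D/AAA tumours from 2 to 5 (2 without replicate 3). Gimap3 in LCK +/D MYCChr6 tumours over +/D thymus was not called in 1 fit of all groups (1.12, adjusted p = 0.184, edgeR). Over all members and alternatives 51 fold changes turned sign, none of a called change; those of changes named in the text follow. In the deeper block of libraries alone, chosen after the data were seen, D/AAA over +/D was 0.0415 for Gimap1 at DN1, -0.0045 for Gimap8 at DN3 and -0.24 for Gimap3 at DP. With 1 library left out, Gimap8 at DN3 ran from -0.0045 to 1.02 and in LCK +/D MYCChr6 tumours over +/D thymus from -0.48 to 0.0564. Without D/AAA thymuses that had a high chromosome 15 score, Gimap1 was 0.0471 (D/AAA over +/D thymus). In the shallower block alone, also chosen after the data were seen, 4 members stayed called in unsorted early tumours, as they did without tumour replicate 3. No paired analysis was possible because the labels give no replicate numbers and replicates were numbered in accession order only. The setting without shallow libraries applied to DN1 alone. Depth limits Gimap3, Gimap4, Gimap7 and Gimap8 at DN3 and in RERT2 D/AAA tumours, where some libraries held few or no counts of them.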
